A study of Rattus norvegicus with 2 samples.

Results

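The forkhead, Krüppel-like (KLF), SP, GATA and nuclear factor I (NFI) genes encode 5 families of DNA-binding transcription factors. Their members were taken by name: every gene whose symbol starts with Fox, a letter and a number (Foxo1 and Foxo3 left out), with Klf or Gata and a number, or is 1 of 7 SP genes (Sp1, Sp2, Sp3, Sp4, Sp5, Sp7, Sp8) or 4 NFI genes (Nfia, Nfib, Nfic, Nfix). This gave 69 genes, each with 1 probe set, out of 18166 genes with a probe set of a single symbol. The naming rule used no expression value, although the families were chosen with earlier results of these data known. RNA came from the rat C6 glioma line, an established tumour line grown in serum. A single array held treated C6 cells (SMiG) and a single array held undifferentiated C6 cells (C6). The labels of the SMiG sample list forskolin (which activates adenylyl cyclase), rapamycin (an mTORC1 inhibitor) and I-BET151 (a BET bromodomain inhibitor), whereas the treatment text, attached to both samples, gives 20 µM CHIR99021 (a GSK3 inhibitor) with 100 µM forskolin over 35 days. This conflict is not resolved here. The study set treated cells against their parent line to ask whether glioma cells can be moved towards glia.

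Forkhead factors share a winged-helix DNA-binding domain and govern the cell cycle, metabolism and organ formation. KLF and SP factors bind GC-rich and CACCC sequences through zinc fingers, and KLF members often act as opposing activators and repressors on the same sites. GATA factors are zinc-finger regulators of blood, heart and endoderm. NFI factors bind DNA as dimers and are known in the nervous system for driving the switch from neuron production to glia production, with NFIA and NFIB leading that step.

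With 1 array in each group there is no replicate error, so each difference below describes these 2 arrays and carries no test. Values are log2 levels as deposited, and differences are SMiG minus C6 on the log2 scale. A gene counted as detected if it lay above a floor on at least 1 array. The floor was the 95th percentile of 1344 olfactory and vomeronasal receptor genes, taken as silent, at 4.96 in SMiG against 4.86 in C6. Of all genes 10903 were detected, with a median difference of −0.0040. Among the silent genes the SD of the difference was 0.32, and 11 were at least 2-fold apart. All 8 glial markers checked for the line were detected (S100b, Vim, Nes, Gfap, Sox10, Cnp, Olig2 and Cd44). Gfap and Olig2 were dim, with Olig2 at 5.43 in SMiG and 5.08 in C6. The glial genes Fabp7, Slc1a3, Aqp4 and Sox9, from another list below, were not detected. Of 14 measured markers of neurons, microglia, endothelium and fibroblasts, 4 were detected, namely Rbfox3, Snap25, Tek and Col1a1, and no microglial marker was among them.

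Few of these factors stood apart between SMiG and C6 by the folds used. Of the 69 members, 49 were detected, and 0 of these were at least 2-fold higher in SMiG and 1, Klf4, was at least 2-fold lower. Over all detected genes the shares were 3.2% higher and 6.53% lower. At 1.5-fold, 4 members were higher (Nfic, Klf5, Klf15 and Nfix) and 2 were lower (Klf4 and Klf12), against 10.5% and 15.1% of all detected genes. With the C6 value of Klf15 raised to its floor, that gene was 1.46-fold higher and no longer among them. In these bulk samples, fewer cells that express a gene and less RNA per cell cannot be told apart. The other 43 detected members, 87.8%, lay within 1.5-fold, as did 74.4% of all detected genes. The SD of the difference was 0.41 over detected members and 0.66 over all detected genes.

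**Figure D1:**
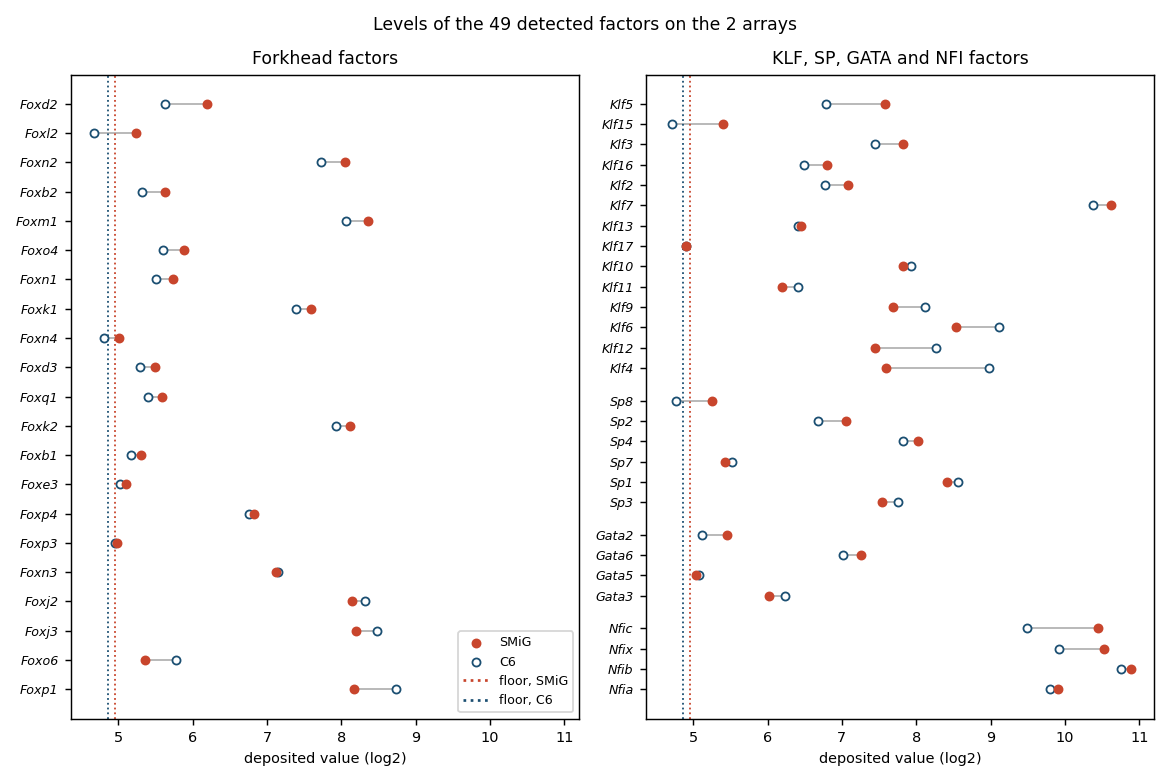
Deposited log2 level of each of the 49 detected factors in SMiG (filled) and C6 (open), 1 array each, with the forkhead genes on the left and the other families on the right, ordered within a family by their difference. Dotted lines mark the floors at 4.96 (SMiG) and 4.86 (C6). The longest gap is that of Klf4, with the SMiG point at 7.60 and the C6 point at 8.97.

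Small positive differences were more frequent among the members than small negative ones. Of the 49 detected members, 32 had a higher value in SMiG, 16 a lower one and 1 the same value, with a median difference of 0.19. A higher value in SMiG was seen in 65.3% of detected members and in 49.0% of all detected genes. Detection through 1 array alone fixes the direction in part: 4 members (Klf15, Sp8, Foxl2 and Foxn4) were above the floor in SMiG alone. Among the 44 members above the floor on both arrays, 28 were higher in SMiG (63.6%) and the median was 0.14, against 49.9% and a median of 0 over all genes above the floor on both arrays. Dim signals also leaned towards SMiG, since the silent genes had a median of 0.06 and 54.5% of them were higher in SMiG. Among detected members with a mean level under 6, 14 of 18 were higher in SMiG, compared with 53.4% of all detected genes in that range. From 6 up to 8, 11 of 18 members were higher (47.1% of all detected genes), from 8 up to 10, 4 of 10 (47.5%), and from 10 upwards 3 of 3 (49.9%). With a lowess trend of the difference against level removed, the median of detected members was 0.14.

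**Figure D2:**
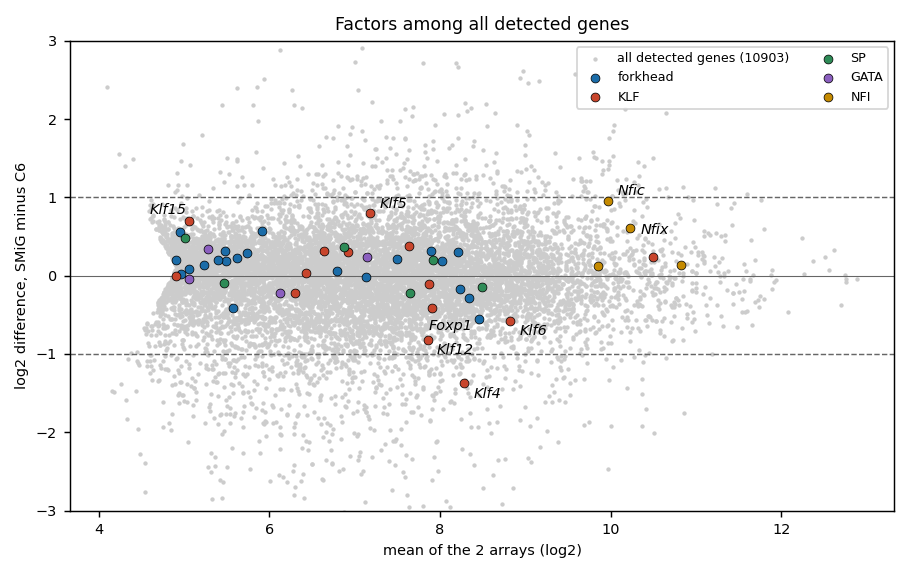
Log2 difference (SMiG minus C6) against the mean log2 level of the 2 arrays for all 10903 detected genes (grey) and for the 49 detected factors, coloured by family. Of all genes, 43 differ by more than 3 and lie outside the plotted range. The factors lie between −1.38 (Klf4) and 0.96 (Nfic), and most of those dimmer than 6 sit just above 0.

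The 4 NFI genes were all detected on both arrays and all had a higher value in SMiG, as did 49.9% of all genes above the floor on both arrays. Nfic stood at 10.45 in SMiG against 9.49 in C6, differing by 0.96 or 1.94-fold, just under the 2-fold threshold. It ranked 402nd from the top of the 10903 differences. In the mouse Nfic is best known for tooth root formation. Nfix, which in the mouse brain regulates neural stem cells, stood at 10.52 in SMiG against 9.92 in C6, differing by 0.61. The differences of Nfia and Nfib were smaller, and lay between the quartiles of all detected genes, −0.35 and 0.29. They were also under the SD of 0.32 among the silent genes. Most silent genes lie under the floor, so that SD does not measure scatter at these higher levels. Nfia was at 9.91 in SMiG against 9.79 in C6, differing by 0.12, and Nfib was at 10.89 in SMiG against 10.75 in C6, differing by 0.14. The family median was 0.37, the highest of the 5 families, but over 4 genes only.

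Genes that are tied to NFI factors, most of them glial, lay on both sides. Of 13 genes in that list, 8 were detected, 4 higher and 4 lower in SMiG, with a median of 0.11. The list did not separate genes that NFI factors activate from genes that they repress. Its split and median therefore give no direction for NFI activity. The chromatin gene Ezh2, also in the list, had a difference of −0.31. The calcium-binding protein gene S100b was at 10.87 in SMiG against 9.67 in C6. Aldoc, encoding the brain aldolase of astrocytes, was at 10.27 in SMiG against 9.37 in C6. The gap junction gene Gja1 was lower, at 5.90 in SMiG against 8.19 in C6, as was Hes1, a Notch target and repressor of differentiation, at 6.95 in SMiG against 8.81 in C6. The classical NFI target Gfap, encoding the astrocyte intermediate filament, was at 5.48 in SMiG against 6.05 in C6. Fabp7, Slc1a3, Aqp4, Apcdd1 and Sox9 were not above the floor on either array.

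Of the 5 families, KLF held both the widest spread and the sole member past 2-fold, but its spread was not wide among all genes. Of 16 KLF genes 14 were detected, 7 higher, 6 lower and 1 equal, with a median of 0.02. The SD was 0.60, against 0.66 over all detected genes. Within 1.5-fold lay 71.4% of the detected KLF genes and 74.4% of all detected genes. At least 2-fold lower were 1 of these 14 and 6.53% of all detected genes. Klf4, 1 of the classical factors for reprogramming cells to pluripotency, was at 7.60 in SMiG against 8.97 in C6. That is a difference of −1.38, or 2.59-fold lower, and 368th from the bottom of the 10903 differences. Klf5, which is expressed in dividing epithelia and sits in the same activator group, differed in the other direction, at 7.58 in SMiG against 6.78 in C6, 1.74-fold higher. Klf6, a gene induced early after injury, was lower at 8.53 in SMiG against 9.11 in C6, differing by −0.58, just short of 1.5-fold.

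The other activator-type KLF genes were within 1.5-fold. Klf7, a promoter of axon growth in neurons, was at 10.61 in SMiG against 10.38 in C6. Klf2, the flow-responsive factor of endothelium, was at 7.08 in SMiG against 6.77 in C6. Klf1, the erythroid member, was below the floor on both arrays. The detected activator group thus had 3 members higher and 2 lower, with differences from −1.38 to 0.80.

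The KLF repressors were likewise split. Klf12 and Klf3 both repress through the CtBP corepressors, and they stood on opposite sides. Klf12 was at 7.45 in SMiG against 8.27 in C6, 1.76-fold lower, while Klf3 was at 7.83 in SMiG against 7.44 in C6, differing by 0.38. The corepressor genes themselves were at 0.16 (Ctbp1) and −0.43 (Ctbp2) as log2 differences. Among the members that recruit the Sin3 corepressor, Klf9 was lowest. This thyroid hormone and glucocorticoid target, which in the mouse takes part in oligodendrocyte maturation, was at 7.69 in SMiG against 8.11 in C6, differing by −0.42. The TGF-beta inducible pair Klf10 and Klf11 had differences of −0.11 and −0.22, and Klf13 and Klf16 had 0.03 and 0.31. Klf14 was below the floor on both arrays, at 4.75 in SMiG against 4.25 in C6. Sin3a, the scaffold of that corepressor, had a difference of 0.38.

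Klf15, a glucocorticoid-induced regulator of amino acid and glucose metabolism, was at 5.41 in SMiG against 4.71 in C6. The C6 value lay under its floor, so the measured difference of 0.70 is given as at least 1.46-fold higher. Klf17 had the same deposited value on both arrays, 4.90, between the 2 floors.

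**Figure D3:**
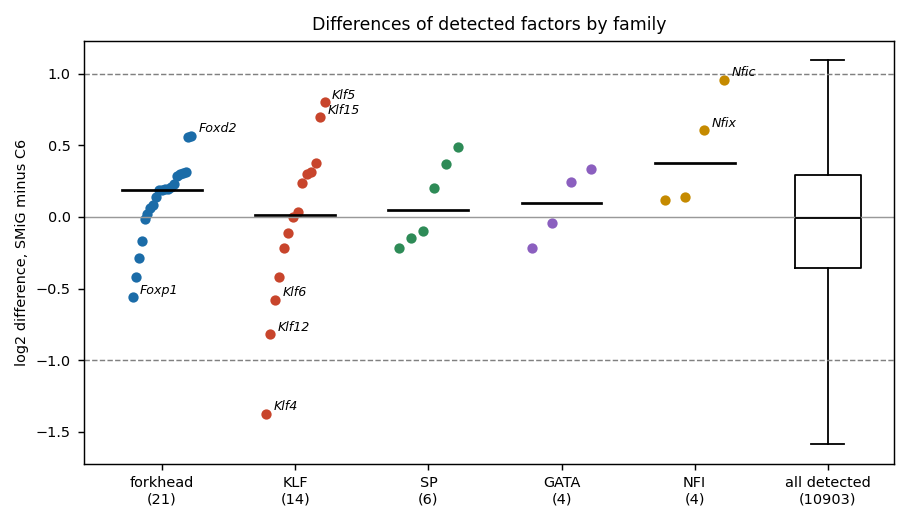
Log2 difference (SMiG minus C6) of each detected factor by family, with the number of genes in brackets, black bars at the family medians and dashed lines at 2-fold. The box on the right shows the middle of all 10903 detected genes (median, quartiles, whiskers from the 2.5th to the 97.5th percentile, −1.59 to 1.10). Klf4 alone lies past a dashed line, and Nfic lies just inside the upper one.

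Upstream sequences are shown for Klf5, Klf6 and Klf9, a higher and a pair of lower KLF genes. For these, the 250 bases before the annotated start lie wholly outside the gene, which was not so for Klf4, Klf12, Nfic or Nfix. Sequences are from RefSeq on GRCr8, 5′ to 3′ along the gene, at chr15:82471831-82472080 on the plus strand (Klf5), chr17:69458479-69458728 on the minus strand (Klf6) and chr1:230126396-230126645 on the plus strand (Klf9). Capitals mark CCAAT boxes, the site bound by NF-Y, as CCAAT or its reverse complement ATTGG.
Klf5: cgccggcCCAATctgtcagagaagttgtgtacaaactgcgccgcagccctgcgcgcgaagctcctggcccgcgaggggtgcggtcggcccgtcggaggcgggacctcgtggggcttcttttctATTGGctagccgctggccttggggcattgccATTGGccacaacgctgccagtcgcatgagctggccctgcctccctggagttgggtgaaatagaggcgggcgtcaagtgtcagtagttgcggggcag
Klf6: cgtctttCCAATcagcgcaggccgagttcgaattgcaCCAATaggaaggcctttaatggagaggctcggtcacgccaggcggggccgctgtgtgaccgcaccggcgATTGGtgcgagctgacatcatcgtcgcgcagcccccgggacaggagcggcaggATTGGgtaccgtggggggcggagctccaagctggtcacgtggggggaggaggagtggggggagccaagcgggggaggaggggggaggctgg
Klf9: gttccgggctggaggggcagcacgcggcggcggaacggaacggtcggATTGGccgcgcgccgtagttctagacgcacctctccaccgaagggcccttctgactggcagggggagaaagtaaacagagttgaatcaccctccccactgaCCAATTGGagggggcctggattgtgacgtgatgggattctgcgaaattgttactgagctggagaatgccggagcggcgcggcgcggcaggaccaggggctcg

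The 3 windows held 3 CCAAT boxes (Klf5), 4 (Klf6) and 3 (Klf9), with 2 of those of Klf9 overlapping. At least 3 were present in 2.31% of 19339 gene windows of the same length, and this motif was picked after its matches were seen. No other member window held as many, and the remaining KLF windows, those of Klf1 and Klf14, held 1 and 0. At least 1 CCAAT box was present in 16 of the 25 members with such a window and in 34.2% of all windows (36.2% of those of protein-coding genes). The KLF sites themselves were also frequent upstream of the members. A CACCC box (CACCC or GGGTG) was in 19 of 25 member windows and 47.0% of all windows (48.2% for protein-coding genes), and a GC box (GGGCGG or CCGCCC), bound by SP and KLF factors, in 12 of 25 and 24.9% (32.5% for protein-coding genes). Member windows were richer in G and C, with a median of 59.6% against 49.2% over all windows and 51.2% over those of protein-coding genes, and its part in these counts was not tested. The cyclic AMP response element TGACGTCA, read by the forskolin-activated factor CREB, was in 1 of the 25 member windows, that of Foxd3, and in 1.42% of all windows. Its shorter form, TGACG or CGTCA, was in 6 of the 25 and in 16.6% of all windows (18.4% for protein-coding genes). The forkhead site TGTTTAC or GTAAACA was in 1, that of Klf9, and in 3.58% of all windows. The GATA site AGATAA or TTATCT was in 1, that of Sp5, and in 11.5%. The NFI palindrome (TTGGC and GCCAA, 5 bases apart) was in 0 of 25 and in 0.0310% of all windows. At so low a share, its absence from 25 windows cannot tell the members from other genes. Its shorter form, TTGGC or GCCAA alone, was in 14 of 25 and in 38.9% of all windows (40.6% for protein-coding genes). A match describes letters and not binding, and any link between these matches and the differences was not tested.

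SP factors were nearly level, with 6 of 7 detected, 3 higher and 3 lower in SMiG, and a median of 0.05. The ubiquitous pair Sp1 and Sp3 both had slightly lower values. Sp1 was at 8.42 in SMiG against 8.56 in C6, and Sp3 was at 7.54 in SMiG against 7.76 in C6. Sp2 was at 7.06 in SMiG against 6.68 in C6, and Sp4, which is prominent in neurons, was at 8.02 in SMiG against 7.82 in C6. Sp8, a limb and forebrain factor, was at 5.26 in SMiG and under the floor in C6 at 4.77, at least 1.32-fold higher. The bone factor Sp7 had a difference of −0.10, and Sp5, a Wnt target, was below the floor on both arrays at 4.74 in SMiG against 4.45 in C6.

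Of 6 GATA genes 4 were detected, with differences from −0.22 to 0.34. Gata6, a factor of endoderm and heart, was at 7.26 in SMiG against 7.02 in C6. Gata2, which maintains blood progenitors, was at 5.45 in SMiG against 5.11 in C6, and Gata3, the factor of helper T cells, was at 6.02 in SMiG against 6.24 in C6. Gata5 had a difference of −0.04. The erythroid factor Gata1 and the cardiac factor Gata4 did not pass the floor on either array. The GATA cofactor gene Zfpm2 (FOG2) was at 4.87 in SMiG, under the floor, and 5.84 in C6, at least 1.84-fold lower.

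Of 36 forkhead genes 21 were detected, and all 21 were within 1.5-fold, as were 74.4% of all detected genes. In SMiG 16 were higher and 5 lower, with a median of 0.19, while 49.0% of all detected genes were higher. Among those with a mean level under 6, all but Foxo6 were higher. The brighter ones were mixed, with Foxp4, Foxk1, Foxk2, Foxm1 and Foxn2 higher and Foxp1, Foxj2, Foxj3 and Foxn3 lower. The ends of the forkhead range were Foxd2, at 6.20 in SMiG against 5.63 in C6, and Foxp1, at 8.17 in SMiG against 8.73 in C6. Both were just under 1.5-fold. Foxp1 is needed for B-cell and motor neuron development in the mouse, and its relative Foxp4 had a difference of 0.06. Foxp2, known for its role in speech circuits in humans, was below the floor on both arrays. Foxl2, the ovary factor, was at 5.23 in SMiG and under the floor in C6, at least 1.29-fold higher.

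Several forkhead genes act in growth control. Foxk1 and Foxk2, which repress autophagy genes downstream of mTOR, were slightly higher. Foxk1 was at 7.59 in SMiG against 7.39 in C6, and Foxk2 was at 8.12 in SMiG against 7.93 in C6. Foxo4 and Foxo6, targets of AKT, lay on opposite sides, with Foxo4 at 5.88 in SMiG against 5.60 in C6 and Foxo6 at 5.36 in SMiG against 5.78 in C6. Their relatives Foxo1 and Foxo3, left out of the members, were at differences of 0.90 and 0.22. Foxo1, 1.87-fold higher in SMiG, thus lay past 1.5-fold, unlike the detected forkhead members. The checkpoint repressor Foxn3 was at −0.02 and Foxn2 at 0.31. Foxj2 and Foxj3 were lower, at −0.17 and −0.29.

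Foxm1, which switches on genes of G2 phase and mitosis, was at 8.36 in SMiG against 8.06 in C6, differing by 0.30. That is close to the upper quartile of 0.29 over all detected genes, and with 1 array a group it gives no firm direction. Most of the listed FOXM1 target genes had lower values. All 19 measured targets were detected, 17 lower in SMiG and 2 (Aurkb and Skp2) higher. Of all 10903 detected genes 5482 were lower. The target median was −0.51 against −0.0040 over all detected genes. The list was drawn up with a lower mitosis group in these data already known, so its direction is no independent evidence. The phosphatase gene Cdc25b was past 2-fold, at 7.19 in SMiG against 8.32 in C6. Cyclin B2 (Ccnb2) was at 8.74 in SMiG against 9.47 in C6, Cenpa at 6.81 in SMiG against 7.52 in C6, and Ect2, which drives cytokinesis, at 8.26 in SMiG against 8.97 in C6. Partners that bring FOXM1 to these promoters were also measured. Mybl2, encoding B-MYB, was at 7.65 in SMiG against 7.40 in C6, and of 5 measured partners 4 were higher in SMiG and Lin37 was lower, at 7.31 in SMiG against 7.96 in C6.

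**Figure D4:**
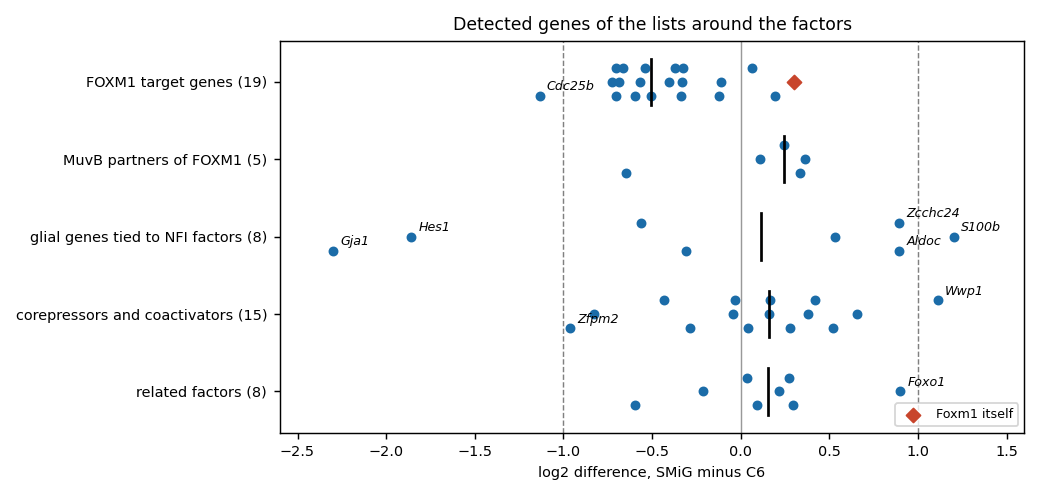
Log2 difference (SMiG minus C6) of the detected genes of 5 lists around the factors, with black bars at the medians, dashed lines at 2-fold and the number of genes in brackets. Points are set apart vertically for legibility. In the top row 17 of 19 FOXM1 targets lie left of 0, and Foxm1 itself (diamond) lies at 0.30.

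Regulators that work with these factors showed a single gene past 2-fold. Of 16 measured corepressors, coactivators and modifiers 15 were detected, 9 higher and 6 lower, with a median of 0.16. Wwp1 encodes a ubiquitin ligase that in human cells marks KLF5 and KLF2 for breakdown, and it was at 9.36 in SMiG against 8.25 in C6, 2.16-fold higher. Lmo4, a LIM-domain adaptor, was at 10.43 in SMiG against 11.26 in C6, and the Groucho corepressor gene Tle3 was at 8.70 in SMiG against 8.05 in C6. Genes tied to KLF2, KLF4 and KLF6 were mostly below the floor, with 4 of 10 measured genes detected. Of these, 3 were lower and 1 was higher in SMiG, with a median of −0.36. The cell cycle inhibitor Cdkn1a, a textbook KLF4 target, was at 7.44 in SMiG against 8.16 in C6. Il6st and Ccr7 had differences of −0.05 and 0.09, and Edn1, under the floor in SMiG, was at least 1.11-fold lower. Trps1, an atypical GATA-type repressor, was at 8.09 in SMiG against 8.68 in C6, and the SP relative Sp9 had a difference of 0.27, while Sp6 was not above the floor on either array.

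The 20 members below the floor on both arrays give no direction. They were the endoderm factors Foxa1, Foxa2 and Foxa3, with Foxc1, Foxd1, Foxd4, Foxe1, Foxh1, Foxi1, Foxi3, Foxl3, Foxp2, Foxr1, Foxr2, Foxs1, Klf1, Klf14, Gata1, Gata4 and Sp5. The remaining detected forkhead genes were dim. They are known from other tissues, such as Foxd3 in neural crest, Foxe3 in the lens, Foxn1 in the thymus and Foxp3 in regulatory T cells. Foxd3 was at 5.49 in SMiG against 5.30 in C6, Foxn1 at 5.74 in SMiG against 5.51 in C6, and Foxp3 at 4.98 in SMiG against 4.96 in C6, within 0.1 of the floors. Foxb1, Foxb2, Foxe3, Foxn4 and Foxq1 had differences from 0.09 to 0.31, with Foxn4 under the floor in C6.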

How the data were processed

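RNA from both cultures was turned into fragmented, biotin-labelled sense cDNA with a GeneChip whole-transcript kit, per the labels' protocols. The authors deposited a table of 36685 probe sets with a log2 value for each array, 1 value a probe set. The log base was inferred, since the highest value, 13.09, exceeds 11.09, the natural log of a 16-bit maximum. Background correction and normalization are not stated in those sources. Column medians were 4.86 (SMiG) and 4.84 (C6), and nothing was rescaled.

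Genes were named from 18511 probe sets with 1 symbol in the platform annotation, and 575 with several and 17599 with none were left out. All 69 members matched RefSeq by gene number. Probe sets of a gene were averaged, but each member had 1. Some further genes of these families were not analysed here. If the dimmer value did not pass its floor, the fold was taken against that floor. Members with at least 1.5-fold, well-known members and up to 4 genes of each list were named by rule, and further members for completeness. Members were picked by symbol, not by their values, but the families and the lists were chosen with earlier results of these data known. Promoter windows came from RefSeq (GRCr8) for 51 members, 25 of them with the 250 bases outside the gene. Motifs were searched on both strands. The number of arrays limits the precision. The counting of genes past a fold was tested on simulated data. Alternatives covered the floor, scaling, probe sets and fold threshold. Software was Python 3.11.15, with pandas 2.3.3, numpy 2.4.6, statsmodels 0.14.6 and matplotlib 3.10.9.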

Additional observations from a re-analysis of the deposited data

How the results depend on the processing

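No paired analysis was possible because each group has 1 array. At 1.5-fold in place of 2-fold, 4 members were higher in SMiG and 2 lower. At 3-fold, 0 were higher and 0 lower. Under the other alternatives the counts stayed at 0 higher and 1 lower: a stricter floor, the 99th percentile of silent genes (32 members detected), no floor (69 members), values under the floor raised to it, median centring, removal of a lowess trend (span 0.3), quantile normalization, and the brightest or each probe set. The last pair cannot differ, since each member has 1 probe set. The median of members was 0.19 and ran from 0.13 with the stricter floor to 0.19 with centring. Klf4 ran from −1.38 to −1.35 and Nfic from 0.96 to 0.98. Klf15 was 0.54 with values raised to the floor and was not detected at the stricter floor. With no replicate, variation between cultures is unknown.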

Other observations

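Genes of motile cilia, many of them switched on by the forkhead factor FOXJ1, were mostly below the floor. Of 17 measured cilia genes 6 were detected, among them the regulators Rfx2 at 6.62 in SMiG and 6.57 in C6 and Rfx3 at 8.34 in SMiG and 8.64 in C6. Mcidas, an inducer of multiciliated cells, was at 6.07 in SMiG and 5.49 in C6. Ccdc39 was past 2-fold lower in measured values, at 3.82 in SMiG and 4.88 in C6, but its C6 value lay under the SMiG floor and no fold is given.

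The members Foxd1 and Klf17 had exactly the same deposited value on both arrays, at 4.86 and 4.90. The same held for 1011 of 36685 probe sets (2.76%), for 72 of the 1344 silent genes (5.36%) and for 81 of the 10903 detected genes (0.743%). How these equal values arose was not tested.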
